A study of Mus musculus with 24 samples.

Results

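Blood coagulation and clot breakdown are regulated by a set of genes of which 9 were followed here in the mouse heart. They are Tfpi, F3, Thbd, Procr, Serpine2, Plat, Plau, Vwf and F2r. The genes were chosen by their group values on these same arrays, so their levels and differences are given as a description. Their p-values are not printed. Whether a difference passed a threshold over all genes is stated, but the choice makes passing more likely, so it counts as no support. Of the 9 genes, 8 have a probe set that the array annotation gives to that gene alone, and Serpine2 was not analysed here. The 8 genes have 14 probe sets. A gene is represented by its brightest probe set, the others serving as a check, and 7 of the 8 passed the filter on dim probe sets among 14763 genes tested in all. Plau did not pass.

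Gene expression was measured in FVB/N mouse hearts on 24 Affymetrix arrays, in 6 groups of 4. Nontransgenic hearts (Ntg) carried no transgene, dnPI3K hearts carried a cardiac-specific transgene that lowers the activity of phosphoinositide 3-kinase (PI3K), and caPI3K hearts carried a transgene that raises it. Mice aged 4 months were operated on, either as sham controls or to cause an infarct (myocardial infarction, MI), and the hearts were taken 8 weeks later. Whether arrays and animals correspond is not stated in the labels, so errors and p-values cover the spread between these arrays only, and the sex of the mice is not stated in the labels.

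Clotting starts when tissue factor, the product of F3, meets factor VII of the plasma, and the inhibitor made from Tfpi holds this step back. Endothelial cells carry thrombomodulin (Thbd) and the endothelial protein C receptor (Procr), which together turn thrombin toward the activation of protein C, an anticoagulant. Von Willebrand factor (Vwf), made by endothelial cells and megakaryocytes, holds platelets at sites of injury. Tissue-type (Plat) and urokinase-type (Plau) plasminogen activator start the breakdown of fibrin. F2r encodes protease-activated receptor 1, through which thrombin signals to cells. In these bulk hearts, fewer cells of a type and less RNA per cell cannot be told apart.

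Values are log2 of the signal plus 11.2, and a difference of 1 on this scale is close to 2-fold, somewhat less for dim genes. A mean is followed by the standard deviation (SD, n = 4 arrays) and a difference by its standard error (SE) from a model over all 24 arrays. A gene passed the threshold when its p, adjusted over all 14763 genes by the Benjamini-Hochberg method in limma, was below 0.05. Levels of different probe sets were not set against each other.

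The arrays were alike in scale, with a mean signal of 500 after trimming on each. The median signal was 102 to 118 on 23 arrays and 150 on dnPI3K MI replicate 1. Pairs of arrays correlated at 0.91 to 0.964 over the tested genes. Some arrays stood apart in ways that touch the results below. On caPI3K sham replicates 1 to 3 the Y-linked gene Eif2s3y was at 10.55 or more and Xist at 7.08 or less. On the other arrays, caPI3K sham replicate 4 among them, Eif2s3y was at 5.72 or less and Xist at 12.65 or more. The caPI3K sham group thus holds arrays of both kinds and every other group only the latter. In comparisons with caPI3K sham this split is mixed with genotype or operation. That group also has the highest array numbers, 1410 to 1417. Ntg sham replicate 4 had a summed signal of 8 fibroblast markers of 101507, against 55902 to 72591 on the other Ntg sham arrays and 88586 to 104996 on the Ntg MI arrays. Genes of heart muscle marked the tissue as labelled, with summed signals of 7 cardiomyocyte markers of 285988 or more on every array.

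Tfpi, on its brightest probe set 1451791_at, had the widest genotype difference of the 7 genes. It was highest in dnPI3K hearts and lowest in caPI3K hearts, with Ntg hearts between, and MI left this order in place. On the dnPI3K sham arrays its values were 12.88, 13.18, 12.86 and 12.79, a mean of 12.93 ± 0.17. On the Ntg sham arrays the values were 12.51, 12.61, 12.35 and 11.74, a mean of 12.3 ± 0.39. In caPI3K sham hearts they were 11.48, 11.27, 11.36 and 11.62, a mean of 11.43 ± 0.15. These 3 groups did not overlap, although Ntg sham replicate 4 came close to the caPI3K sham arrays.

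After MI the order was the same. The dnPI3K MI values were 12.74, 12.63, 12.74 and 12.44, a mean of 12.64 ± 0.14. Those of Ntg MI were 12.36, 12.13, 12.52 and 12.13, a mean of 12.28 ± 0.19. The caPI3K MI arrays gave 11.91, 11.68, 11.5 and 11.38, a mean of 11.62 ± 0.23. Every caPI3K array lay below every dnPI3K array, while the Ntg MI and dnPI3K MI arrays overlapped by Ntg MI replicate 3. In the order of the 6 means, dnPI3K sham stood clear of dnPI3K MI and Ntg MI of caPI3K MI, and the other neighbours overlapped.

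**Figure D1:**
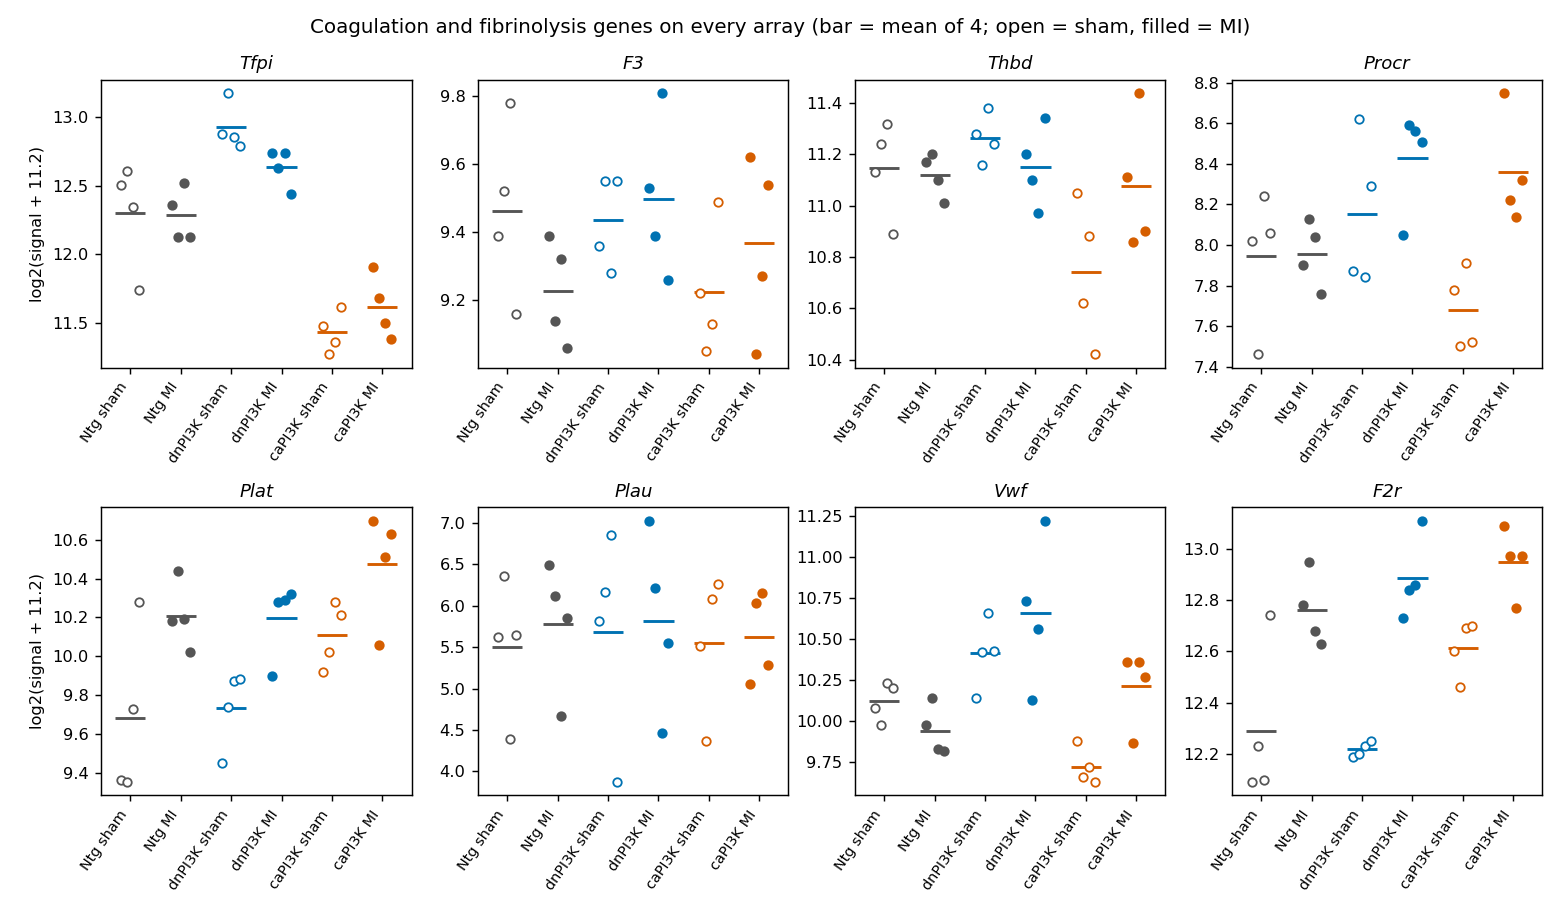
Log2(signal + 11.2) of 8 genes on every array, by group, each point an array and each bar the mean of 4; open points are sham and filled points MI hearts, and each panel has its own vertical scale. Tfpi separates caPI3K from dnPI3K hearts on every array, F2r is high in the MI groups, and Plau spreads widely within each group.

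The differences between sham groups for Tfpi were 0.63 (SE 0.14) for dnPI3K minus Ntg, -0.87 (SE 0.14) for caPI3K minus Ntg and -1.49 (SE 0.14) for caPI3K minus dnPI3K. The last is 2.82-fold lower in caPI3K than in dnPI3K hearts. Each of the 3 passed the threshold. Among MI hearts caPI3K was 2.03-fold lower than dnPI3K, a log2 difference of -1.02 (SE 0.14) that also passed. The MI difference of caPI3K minus Ntg, -0.67 (SE 0.14), did not pass, nor did that of dnPI3K minus Ntg, 0.35 (SE 0.14). Within genotypes the MI minus sham differences were -0.02, -0.29 and 0.18 (SE 0.14 each) in Ntg, dnPI3K and caPI3K hearts, and none passed.

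The other 3 probe sets of Tfpi gave the same signs for these genotype differences. For caPI3K minus dnPI3K in sham hearts they gave -0.85, -0.85 and -1.24, and for caPI3K minus Ntg -0.56, -0.57 and -0.68, all past the threshold. In MI hearts they gave -0.8, -0.77 and -1.1 for caPI3K minus dnPI3K, which also passed. For dnPI3K minus Ntg in sham hearts they gave 0.29, 0.28 and 0.56, of which only the last, from 1451790_a_at, passed. That probe set also passed for dnPI3K minus Ntg in MI hearts, at 0.52 (SE 0.14), where the others gave 0.33 and 0.28 and did not. The difference in size between probe sets was not tested.

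**Figure D2:**
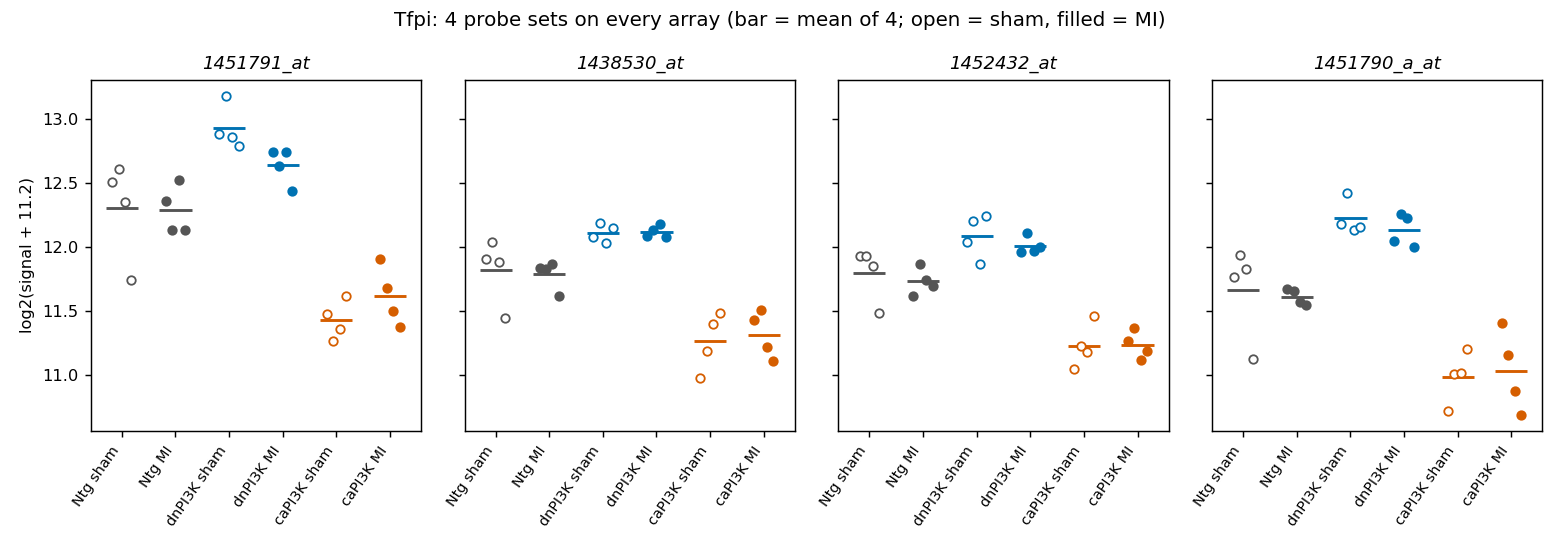
Log2(signal + 11.2) of Tfpi on its 4 probe sets, each point an array and each bar the mean of 4 arrays; open points are sham and filled points MI hearts. On all 4 probe sets the caPI3K groups are lowest, and the sham difference of caPI3K minus dnPI3K runs from -1.49 to -0.85.

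Without the 3 caPI3K sham arrays that carry Y-linked signal, Tfpi was -1.3 (SE 0.23) for caPI3K minus dnPI3K in sham hearts and still passed. For caPI3K minus Ntg it was then -0.68 (SE 0.23) and no longer passed, with 1 caPI3K sham array left that is assumed to vary like the other groups. Without Ntg sham replicate 4, dnPI3K minus Ntg did not pass, at 0.44 (SE 0.12), nor did it without dnPI3K sham replicate 2, at 0.54, while caPI3K minus Ntg was -1.05 (SE 0.12) and passed. Without sham arrays 415 to 418, a pair each of Ntg and dnPI3K, neither passed, at 0.78 and -0.61.

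Endothelial cells are a known source of Tfpi. In sham hearts 0 of 10 endothelial markers passed in limma for caPI3K minus dnPI3K, beside 9.9% of all genes. Of these markers 3 had an unadjusted p under 0.05, where 21.3% of all genes did, and their median difference was -0.09. Their summed signal was 13751 to 17012 on the caPI3K sham arrays and 15664 to 16950 on the dnPI3K sham arrays, ranges that overlap. The part of endothelial RNA in the Tfpi difference was not tested. The tested genes whose values ran most like those of Tfpi over the 24 arrays were Pde1c, Bex1 and Pygl, with Pearson correlations of 0.94, 0.92 and 0.92. With group means removed the correlations were 0.59, 0.57 and 0.48.

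The sequence before each annotated start of Tfpi and F2r, which passed in the most comparisons (4 and 3 of 12), is shown for its short motifs. The bases are RefSeq's for assembly GRCm38.p6, read 5′ to 3′ on the gene's strand and ending at the base before the start, with motif matches in capitals. Tfpi has a pair of annotated starts on the minus strand, at chr2:84476760-84477009 and chr2:84474175-84474424, and F2r has 1, also on the minus strand, at chr13:95618467-95618716.
Tfpi, start 1: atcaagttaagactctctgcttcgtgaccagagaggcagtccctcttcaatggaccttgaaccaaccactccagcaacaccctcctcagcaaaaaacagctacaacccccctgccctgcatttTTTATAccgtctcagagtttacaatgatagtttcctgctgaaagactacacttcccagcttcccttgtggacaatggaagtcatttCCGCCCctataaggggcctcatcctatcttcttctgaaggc
Tfpi, start 2: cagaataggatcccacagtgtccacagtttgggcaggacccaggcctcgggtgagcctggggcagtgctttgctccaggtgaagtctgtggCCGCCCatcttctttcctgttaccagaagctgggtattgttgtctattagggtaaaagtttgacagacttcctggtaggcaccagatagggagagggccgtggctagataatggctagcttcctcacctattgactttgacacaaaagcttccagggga
F2r: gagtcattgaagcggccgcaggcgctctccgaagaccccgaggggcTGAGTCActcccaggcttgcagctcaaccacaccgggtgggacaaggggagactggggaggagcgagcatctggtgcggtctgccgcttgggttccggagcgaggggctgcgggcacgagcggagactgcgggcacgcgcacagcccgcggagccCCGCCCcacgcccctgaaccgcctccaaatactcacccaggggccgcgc
Motifs were searched on both strands, whether or not they overlap another: GTAAACA for FoxO factors, TGANTCA for AP-1, TATAAA for the box of that name, CCAAT for the box of its name, GGGCGG for the GC box and CACGTG for the E-box. FoxO factors are known targets of PI3K signalling. The window of the first Tfpi start holds TATAAA 127 bases before the start and a GC box 41 bases before it, each on the opposite strand. The second holds a GC box 159 bases before its start, also on the opposite strand. In F2r an AP-1 match lies 204 bases before the start and a GC box, on the opposite strand, 49 bases before it. Over 32851 mouse windows of the same length, 12.4% hold TATAAA, 32.7% a GC box, 6.75% an AP-1 match and 3.17% the FoxO letters. The FoxO letters are not in these 3 windows, which says nothing of the factors themselves. Of the other genes, F3, Procr and Serpine2 also had a window.

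F3, the source of tissue factor, differed little between the groups on probe set 1417408_at. Group means ran from 9.22 ± 0.19 in caPI3K sham to 9.5 ± 0.23 in dnPI3K MI hearts, and neighbouring groups in the order overlapped. Its single-array values lay between 9.04 and 9.81. The MI minus sham differences were -0.24, 0.06 and 0.14 (SE 0.15 each) in Ntg, dnPI3K and caPI3K hearts. None of its 12 differences passed the threshold. Clca3a1, Hmgn1 and Krt10 ran most like F3 over the 24 arrays, at correlations of 0.73, 0.7 and 0.65.

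Thbd and Procr, the pair that serves the protein C pathway, had their lowest means in caPI3K sham hearts, as did Tfpi, F3 and Vwf. The Thbd values there were 11.05, 10.62, 10.88 and 10.42, a mean of 10.74 ± 0.28, on probe set 1448529_at. In dnPI3K sham hearts they were 11.28, 11.16, 11.38 and 11.24, a mean of 11.26 ± 0.09. These groups did not overlap, and the difference of -0.52 (SE 0.12) for caPI3K minus dnPI3K passed; it was -0.57 and did not pass without sham arrays 415 to 418. The Ntg sham values were 11.13, 11.24, 11.32 and 10.89, and caPI3K minus Ntg was -0.4 (SE 0.12), which did not pass. Without Ntg sham replicate 4, the lowest of these, it was -0.49 (SE 0.13) and passed. The MI groups had means of 11.08 to 11.15 for Thbd and overlapped, as did all neighbours in its order of means.

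Procr lay nearer to the level of the filter, which was 6.29 to 6.85 over the arrays on this scale. Its probe set, 1420664_s_at, carries a suffix that marks probes shared between transcripts. The caPI3K sham values of Procr were 7.78, 7.5, 7.91 and 7.52 and the caPI3K MI values 8.75, 8.22, 8.14 and 8.32. These groups did not overlap, and MI minus sham was 0.68 (SE 0.2) in caPI3K hearts, which did not pass. In Ntg and dnPI3K hearts it was 0.01 and 0.27 (SE 0.2 each). None of the 12 Procr differences passed. The means of Procr ran from 7.68 ± 0.2 in caPI3K sham through Ntg sham, Ntg MI and dnPI3K sham (8.15 ± 0.37) to caPI3K MI (8.36 ± 0.27) and dnPI3K MI (8.43 ± 0.25), and each group overlapped its neighbours in this order. The genes most like Procr were Tcf21, Sgce and Omd, at correlations of 0.77, 0.73 and 0.73 over the 24 arrays. Those most like Thbd were Txndc12, Jcad and Tnfrsf1b, at 0.79, 0.75 and 0.74.

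Vwf, on probe set 1435386_at, was higher in dnPI3K than in Ntg hearts after MI. The dnPI3K MI values were 10.73, 10.13, 10.56 and 11.22, a mean of 10.66 ± 0.45. On the Ntg MI arrays they were 9.98, 10.14, 9.83 and 9.82, a mean of 9.94 ± 0.15. The groups overlapped by dnPI3K MI replicate 2, and that group spread most. The difference of 0.72 (SE 0.15) passed, though not when these 2 groups were fitted alone. In sham hearts, dnPI3K values of 10.14, 10.42, 10.66 and 10.43 lay above caPI3K values of 9.88, 9.66, 9.72 and 9.63 without overlap. There caPI3K minus dnPI3K was -0.69 (SE 0.15) and passed, whereas without the 3 caPI3K sham arrays with Y-linked signal it was -0.78 (SE 0.26) and did not.

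MI minus sham for Vwf was -0.18, 0.25 and 0.49 (SE 0.15 each) in Ntg, dnPI3K and caPI3K hearts, and none passed. The Ntg sham arrays lay at 9.98 to 10.23 and the caPI3K MI arrays at 9.87 to 10.36, and all neighbours in the order of the 6 means overlapped. Beside the Vwf difference in MI hearts, 1 of 10 endothelial markers passed, Emcn at 0.34 (SE 0.09, adjusted p = 0.0428 in limma). That call was lost without any of Ntg MI replicates 3 and 4 and dnPI3K MI replicates 1, 3 and 4, at 0.28 to 0.35. Over all genes 2.59% passed. Of the 10 endothelial markers 4 had an unadjusted p under 0.05 in limma, where 15.2% of all genes did. The median difference of the 10 was 0.109. The summed endothelial signal was 16180 to 18773 in dnPI3K MI and 13212 to 17272 in Ntg MI hearts. Of 6 platelet and megakaryocyte markers 5 were tested and 0 passed in limma, with 1 at an unadjusted p under 0.05, and their sums were 2606 to 3610 and 2594 to 3254. Their part in the Vwf difference was not tested. Rras, Eml3 and Tcf21 ran most like Vwf, at correlations of 0.84, 0.79 and 0.79 over the 24 arrays.

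Tcf21, a gene of cardiac fibroblasts, was among the genes most like Procr and Vwf. With group means removed these correlations were 0.56 and 0.37. Tcf21 itself differed between genotypes. It was lower in caPI3K than in dnPI3K hearts, with a log2 difference of -0.6 (SE 0.12, adjusted p = 0.00114 in limma) in sham and -0.45 (SE 0.12, adjusted p = 0.0256) in MI hearts. In MI hearts it was higher in dnPI3K than in Ntg hearts, at 0.6 (SE 0.12, adjusted p = 0.00435). It was the only 1 of 8 fibroblast markers to pass in each of these 3 comparisons, where 9.9%, 4.23% and 2.59% of all genes passed. For caPI3K minus dnPI3K in MI hearts Acta2 (-0.48) and Tagln (-0.51) of smooth muscle, Wt1 (-0.91) and the hepatocyte gene Ttr (-2.24) also passed. Each lost its call under 5 to 9 of 17 alternatives, among them leaving out single MI arrays of either genotype. Ttr was dim, with a mean signal of 112 and single arrays from 2.75 to 465, where the filter level was 66.9 to 104. Without the 3 caPI3K sham arrays with Y-linked signal the sham difference of Tcf21 was -0.54 and did not pass. Its call for caPI3K minus dnPI3K in MI hearts was lost without dnPI3K MI replicate 2 or 4. The same held without caPI3K MI replicate 2 or 3, with values of -0.41 to -0.38 in these fits. The part of these cell types in the values of Procr and Vwf was not tested.

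Plat, read by probe set 1415806_at, had higher means after MI in every genotype. In Ntg hearts the sham values were 9.36, 9.35, 9.73 and 10.28 and the MI values 10.18, 10.44, 10.19 and 10.02. Only Ntg sham replicate 4 lay among the MI arrays. In dnPI3K hearts the sham values were 9.45, 9.74, 9.87 and 9.88 and the MI values 9.9, 10.28, 10.29 and 10.32, with no overlap. The caPI3K sham values of 9.92, 10.02, 10.28 and 10.21 overlapped the MI values of 10.7, 10.06, 10.51 and 10.63. MI minus sham was 0.53, 0.46 and 0.37 (SE 0.17 each) in Ntg, dnPI3K and caPI3K hearts, and none of these passed. Without Ntg sham replicate 4 the Ntg difference was 0.73 (SE 0.15) and passed. In the order of means, from 9.68 ± 0.44 in Ntg sham to 10.48 ± 0.29 in caPI3K MI hearts, caPI3K sham at 10.11 ± 0.17 stood clear of dnPI3K sham at 9.74 ± 0.2, and the other neighbours overlapped. The difference between Ntg and caPI3K sham hearts, 0.43 (SE 0.17), did not pass, but without Ntg sham replicate 4 it was 0.63 (SE 0.15) and did.

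A second probe set of Plat, 1458553_at, was above the filter on 12 of 24 arrays and did not follow the brightest one. It gave 0.6, -0.55 and -1.04 (SE 0.47 each) for MI minus sham in Ntg, dnPI3K and caPI3K hearts, none of which passed, so the higher means after MI in the latter genotypes rest on 1415806_at alone. Plau was dimmer than the other genes against the filter. Its probe sets 1422138_at and 1422139_at were above the filter on 3 and 2 of 24 arrays. On the former its group means were 5.51 to 5.81, with single values from 3.87 to 7.03, and all groups overlapped. Most of its values lay below the filter and give no order of the groups.

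F2r was higher after MI than after the sham operation in Ntg and dnPI3K hearts on probe set 1437308_s_at. The 3 MI groups had the highest means, although neighbours in the order of the 6 means all overlapped. In dnPI3K hearts the sham values were 12.19, 12.2, 12.23 and 12.25, a mean of 12.22 ± 0.03. The dnPI3K MI values were 12.73, 12.84, 12.86 and 13.11, a mean of 12.88 ± 0.16. The 2 groups were well apart, and the difference of 0.67 (SE 0.11), or 1.59-fold, passed. In Ntg hearts the sham values were 12.09, 12.23, 12.1 and 12.74, a mean of 12.29 ± 0.3. The Ntg MI values were 12.78, 12.95, 12.68 and 12.63, a mean of 12.76 ± 0.14. Ntg sham replicate 4 again lay among the MI arrays.

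The Ntg difference of F2r was 0.47 (SE 0.11) and passed, but the call was sensitive to leaving out single arrays. Leaving out any of Ntg sham replicates 1 to 3 or Ntg MI replicates 1 to 3 gave 0.4 to 0.49 and ended the call, as did leaving out sham arrays 415 to 418, at 0.34. Without Ntg sham replicate 4 it was 0.62 (SE 0.09) and passed. In caPI3K hearts the sham values of 12.6, 12.46, 12.69 and 12.7 lay just below the MI values of 13.09, 12.97, 12.77 and 12.97. That difference, 0.34 (SE 0.11), did not pass. In sham hearts F2r was higher in caPI3K than in dnPI3K by 0.4 (SE 0.11), which passed, and in MI hearts the same difference was 0.06 (SE 0.11), which did not. Without the 3 caPI3K sham arrays with Y-linked signal the sham difference was 0.48 (SE 0.18) and did not pass, and without caPI3K sham replicate 3 or 4, or sham arrays 415 to 418, it was 0.37 and did not pass either. The second F2r probe set, 1450852_s_at, gave 0.61, 0.76 and 0.26 (SE 0.15 each) for MI minus sham in Ntg, dnPI3K and caPI3K hearts, of which only the dnPI3K value passed. Both F2r probe sets carry the suffix of shared probes.

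Some fibroblast markers were higher after MI in every genotype, and single markers of other cell types passed in dnPI3K hearts. In Ntg, dnPI3K and caPI3K hearts 3, 4 and 2 of 8 fibroblast markers passed, all higher after MI, with median differences over the 8 of 0.638, 0.734 and 0.642. Over all genes 0.772%, 9.37% and 1.11% passed. The 2 markers in caPI3K hearts were Postn and Tcf21. The Tcf21 call, at 0.51, was lost under 7 of 18 alternatives, among them leaving out single caPI3K arrays. In dnPI3K hearts 1 of 7 cardiomyocyte markers (Tnni3, -0.35), 1 of 5 tested mesothelial and epicardial markers (Wt1, 0.8) and 1 of 3 tested hepatocyte markers (Alb, 1.6) also passed. Their calls were lost under 2 of 18, 6 of 18 and 11 of 17 alternatives. These include, for each gene, leaving out sham arrays 415 to 418 and leaving out dnPI3K sham replicate 1. Alb was dim, with a mean signal of 55.3 over the arrays, under the filter level of 66.9 to 104. Of the 7 cardiomyocyte markers 6, 5 and 1 had an unadjusted p under 0.05 in limma in Ntg, dnPI3K and caPI3K hearts. Among all genes 12%, 21.9% and 12.1% did. The median differences of the 7 were -0.23, -0.237 and -0.077. The summed signal of the cardiomyocyte markers on the dnPI3K arrays was 328952 to 429648 in sham and 294277 to 329802 in MI hearts. Postn, which encodes a matrix protein of activated fibroblasts, rose by 1.77, 1.8 and 1.66 (SE 0.31 each) with adjusted p of 0.00477, 0.000417 and 0.00476 in limma. The Ntg value was 1.28 and did not pass without sham arrays 415 to 418, nor did it pass when the 2 groups were fitted alone, and the caPI3K value was 1.99 and did not pass without the arrays with Y-linked signal. The summed fibroblast signal was 72408 to 84277 in dnPI3K sham and 100139 to 122054 in dnPI3K MI hearts. The genes most like F2r over the 24 arrays were Col6a2, Msn and Col8a1, each at a correlation of 0.92, and with group means removed at 0.79, 0.84 and 0.78. For Plat they were Col4a1, Fscn1 and Col5a1, at 0.91, 0.89 and 0.87. Plat and F2r correlated with each other at 0.86, and at 0.7 with group means removed. Between sham groups the summed fibroblast signal was 63547 to 73303 in caPI3K hearts, where F2r was higher than in dnPI3K hearts. The part of RNA from these cells in the F2r and Plat values was not tested.

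**Figure D3:**
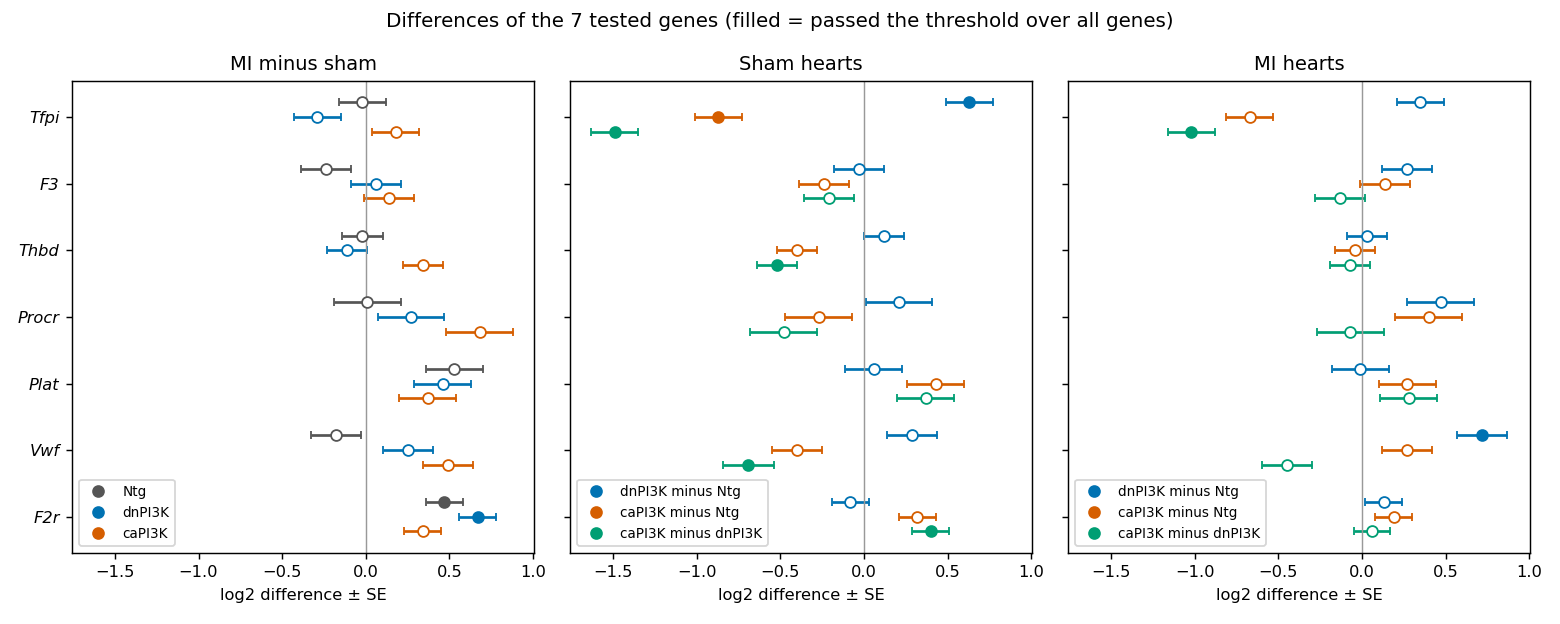
Log2 differences of the 7 tested genes with their SE, for MI minus sham in each genotype (left) and between genotypes in sham (middle) and MI hearts (right); filled points passed the threshold over all genes. Tfpi is lower in caPI3K than in dnPI3K hearts in both states, -1.49 in sham and -1.02 in MI, and F2r is higher after MI in Ntg (0.47) and dnPI3K hearts (0.67).

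Counted over the 7 tested genes, few differences passed and their share is set beside that of all genes only as background, since these contrasts took part in the choice. For MI minus sham, 1 of 7 passed in Ntg hearts where 0.772% of all genes did. In dnPI3K hearts it was 1 of 7 beside 9.37%, and in caPI3K hearts 0 of 7 beside 1.11%, with 5 of 7 at an unadjusted p under 0.05 in limma where 12.1% of all genes were. The median difference of the 7 genes was -0.018, 0.249 and 0.338 in these genotypes, where that of all genes was -0.005, 0.01 and -0.002. In caPI3K hearts all 7 differences were above 0. That did not hold without the 3 caPI3K sham arrays with Y-linked signal, which leaves 1 array in that group. F3 was then at -0.12 and Tfpi at -0.01, and the others stayed above 0.

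Between sham groups, 1 of 7 passed for dnPI3K minus Ntg beside 1.14% of all genes, and 1 of 7 for caPI3K minus Ntg beside 0.278%. For caPI3K minus dnPI3K, 4 of 7 passed beside 9.9%, Tfpi, Thbd and Vwf lower and F2r higher. Between MI groups, 1 of 7 passed for dnPI3K minus Ntg beside 2.59%, 0 of 7 for caPI3K minus Ntg beside 0%, with 1 of 7 at an unadjusted p under 0.05 where 4.63% of all genes were, and 1 of 7 for caPI3K minus dnPI3K beside 4.23%. Comparisons that share a group share its arrays and are not independent.

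The study also set the MI effects of the genotypes against each other. No gene of the 14763 passed in any of these 3 comparisons, a share of 0% in each, and the same held for the 7 genes. For dnPI3K minus Ntg, caPI3K minus Ntg and caPI3K minus dnPI3K, 0, 3 and 3 of the 7 genes had an unadjusted p under 0.05 in limma, where 7.6%, 5.53% and 10.2% of all genes did, and nothing is read from these counts. Their differences between MI effects ranged from -0.27 to 0.43, from -0.16 to 0.67 and from -0.33 to 0.47 in that order, with SE of 0.15 to 0.29. Vwf and Procr had the highest values for caPI3K minus Ntg, 0.67 (SE 0.22) and 0.67 (SE 0.29). An MI effect that passed in a genotype was thus not shown to differ from that in another.

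Of 45 other genes of coagulation and fibrinolysis, 24 were tested, 16 were under the filter and 5 had no probe set named. By role, 5 of 15 clotting factors, 3 of 7 platelet adhesion genes and 8 of 9 genes listed as anticoagulants were tested. So were 7 of 11 genes of fibrinolysis and 1 of 3 protease-activated receptors. Many clotting factors are made in the liver, and the fibrinogen genes Fga, Fgb and Fgg were among those under the filter. After MI, 1, 4 and 2 of the 24 rose in Ntg, dnPI3K and caPI3K hearts and none fell, beside the 0.772%, 9.37% and 1.11% of all genes that passed. At an unadjusted p under 0.05 there were 6 of 24 in each, where 12%, 21.9% and 12.1% of all genes were.

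Anxa2, an annexin that serves as a surface receptor for plasminogen and Plat together with S100a10, rose in Ntg hearts by 0.47 (SE 0.1, adjusted p = 0.0259 in limma). Its Ntg sham values were 12.23, 12.17, 12.33 and 12.71 and its Ntg MI values 13.02, 12.95, 12.77 and 12.59, overlapping by Ntg sham replicate 4. The call was lost when any of Ntg sham replicates 1 to 3 or Ntg MI replicates 1 to 3 was left out, at 0.4 to 0.49. In dnPI3K hearts it rose by 0.44 (SE 0.1, adjusted p = 0.00707), and in caPI3K hearts the difference was 0.39 (SE 0.1, adjusted p = 0.0642). Lrp1, a receptor that clears Plat and Tfpi from the surroundings, rose by 0.68 (SE 0.12, adjusted p = 0.000831) in dnPI3K and 0.65 (SE 0.12, adjusted p = 0.00605) in caPI3K hearts. In Ntg hearts its difference was 0.48 (SE 0.12, adjusted p = 0.0643), and 0.61 without Ntg sham replicate 4, where it passed. In dnPI3K hearts the sham values of Lrp1 were 10.5, 10.58, 10.7 and 10.29 and the MI values 11.01, 11.04, 11.36 and 11.36, without overlap.

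S100a10 differed by genotype in sham hearts and by MI in caPI3K hearts. The caPI3K sham values were 11.48, 11.16, 11.65 and 11.5, below those of every other group. The dnPI3K sham values were 12.2, 12.1, 12.19 and 12.14, and caPI3K minus dnPI3K was -0.71 (SE 0.13, adjusted p = 0.000501 in limma). In caPI3K MI hearts S100a10 was at 12.46, 12.2, 11.96 and 12.04, a rise of 0.71 (SE 0.13, adjusted p = 0.00366). Without the 3 caPI3K sham arrays with Y-linked signal these were -0.66 and 0.66, and neither passed; the Lrp1 rise in caPI3K hearts was then 0.72 and did not pass either. In dnPI3K hearts MI minus sham was 0.08 (SE 0.13), and the difference between these MI effects was 0.64 (SE 0.18, adjusted p = 0.184), which did not pass.

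Of the genes listed here as anticoagulants, Anxa5 and Gas6 rose in dnPI3K hearts. The protein of Anxa5 covers the phospholipid on which clotting factors assemble, and Gas6 was listed as a relative of protein S. Whether Gas6 acts as an anticoagulant here was not tested. Anxa5 rose by 0.39 (SE 0.1, adjusted p = 0.0121 in limma), from 11.69, 11.78, 11.7 and 11.69 to 12.06, 12.08, 12.19 and 12.07, without overlap. Gas6 rose by 0.39 (SE 0.12, adjusted p = 0.0356), from 11.3, 11.62, 11.73 and 11.52 to 11.81, 11.69, 12.09 and 12.15, with overlap. Its call was lost without dnPI3K sham replicate 1 or 4 or dnPI3K MI replicate 3 or 4, at 0.31 to 0.38. Without sham arrays 415 to 418, Anxa2 and Anxa5 (both 0.41) and Gas6 (0.31) did not pass in dnPI3K hearts, while Lrp1 did. Serpini1, which encodes neuroserpin, an inhibitor of Plat, was lower in caPI3K than in dnPI3K sham hearts, with a difference of -0.55 (SE 0.14, adjusted p = 0.0111) that was -0.43 and did not pass without caPI3K sham replicate 4. Its values were 9.66, 9.42, 9.46 and 9.02 against 9.74, 9.92, 10.1 and 10.01.

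For caPI3K minus dnPI3K in sham hearts 2 of the 24 genes passed, both lower, beside 9.9% of all genes. An unadjusted p under 0.05 in limma was found for 8 of the 24, where 21.3% of all genes had one. The median difference of the 24 was -0.234 where that of all genes was -0.002. In the other 5 comparisons between genotypes within an operation, 0 of 24 passed in limma, with 1 to 6 of 24 at an unadjusted p under 0.05, where 4.63% to 16.1% of all genes were. For the 3 differences between MI effects it was 0 of 24, with 0, 0 and 1 of 24 at an unadjusted p under 0.05, where 7.6%, 5.53% and 10.2% of all genes were.

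**Figure D4:**
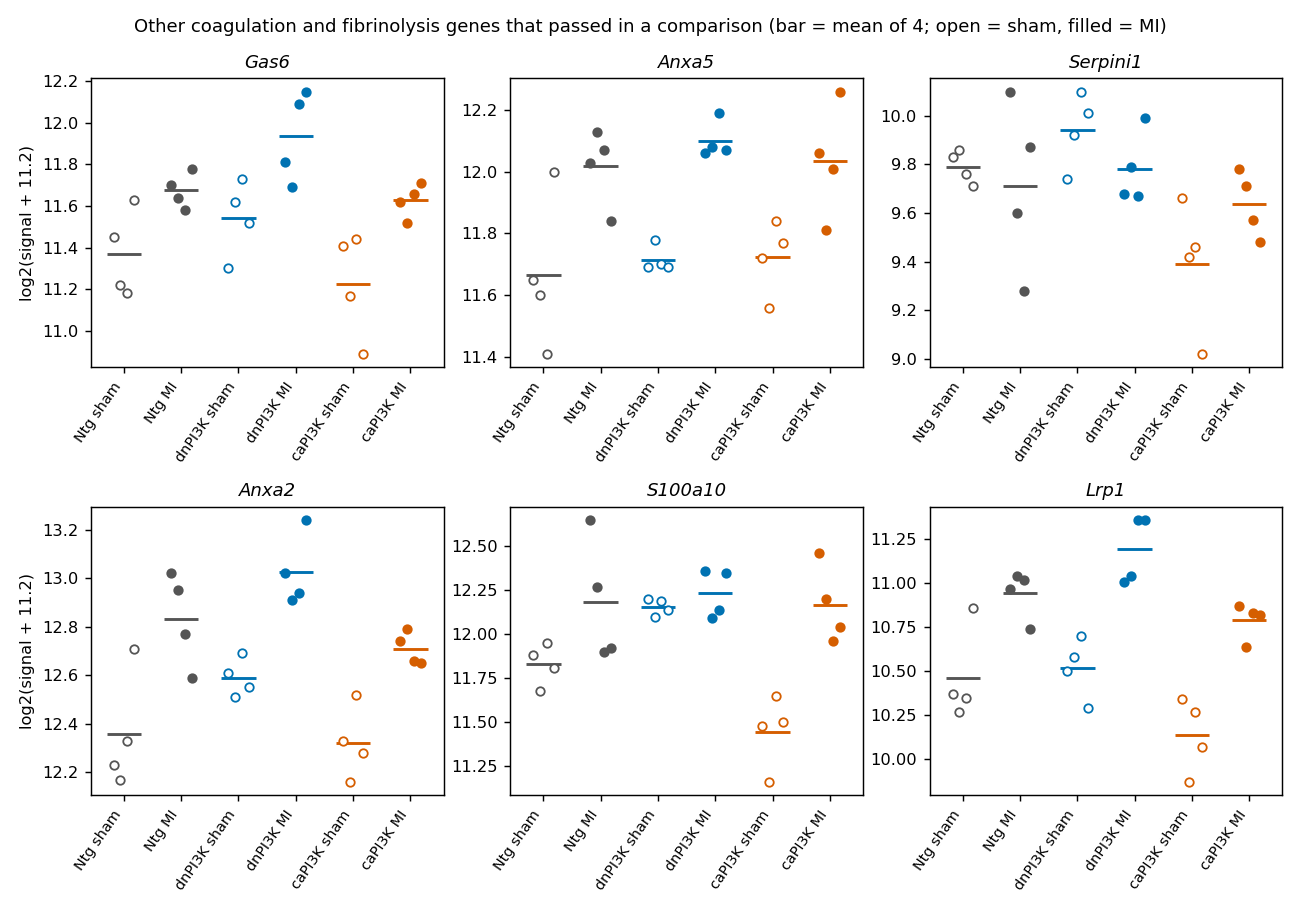
Log2(signal + 11.2) of the 6 other genes of coagulation and fibrinolysis that passed the threshold in a comparison, by group; each point is an array, each bar the mean of 4, open points are sham and filled points MI hearts. S100a10 is lowest on the caPI3K sham arrays, at 11.16 to 11.65, and in dnPI3K hearts every MI array lies above every sham array for Lrp1, Anxa2 and Anxa5.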

How the data were processed

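RNA from mouse hearts was hybridized to 24 arrays. The deposited values are signal intensities, which the submitters' processing notes attribute to MAS5, with no version or scaling target given in the sources used here. Of 45101 probe sets, 64 were controls, 34945 named 1 gene, 932 several and 9160 were not in the annotation used. A probe set was kept when above the 40th percentile of its array on at least 4 arrays, and the brightest stood for its gene. Log2(signal + 11.2), where 11.2 is the median signal divided by 10, was fitted in limma 3.58.1 (R 4.3.3, with the package data.table in version 1.17.8) with 6 group means, an intensity trend and 18 residual degrees of freedom, over all 14763 genes and 12 comparisons. The fit was tried on simulated data with independent normal noise, which does not cover effects shared by the genes of an array. Each array is 1 sample, and the number of arrays limits the precision.

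The members, the lists of 45 pathway genes and of cell type markers, and the tests were chosen with earlier results of these data known. Named genes were all 9 members, every other pathway gene past the threshold, up to 6 per comparison, and the 3 genes with the highest Pearson correlation to each member. The cell type markers named were chosen after their values were seen. The caPI3K MI samples carry a tag named for sham, but their text and titles give MI. No batch is named in the labels, which give array numbers. The caPI3K sham arrays are numbered 1410 to 1417 and the other arrays 1191 or lower. No alternative covered this split, so in comparisons with caPI3K sham it cannot be told apart from the group itself. Alternatives were other pseudocounts, filters, normalization, probe sets and priors, fits of the compared groups only, a term for array numbers under 1000, and leaving arrays out. RefSeq promoter windows of GRCm38.p6 were scanned in Python 3.11.15, and figures drawn with matplotlib 3.10.9.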

Additional observations from a re-analysis of the deposited data

Results flagged for a closer look

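Of 84 groups of 4 arrays checked, for 8 members with a probe set, Plau included, and 6 named pathway genes, 4 held an array far from the other 3, and chance alone sets apart about 1 group in 20. In dnPI3K MI hearts replicate 1 had Procr at 8.05, where the other arrays were at 8.51 to 8.59. The same array had Plat at 9.9, against 10.28 to 10.32 on the others. It is also the array with a median signal of 150, and the part of that in these values was not tested. Without it, MI minus sham of Plat in dnPI3K hearts was 0.56 and passed the threshold. Anxa5 was at 11.78 on dnPI3K sham replicate 2, where the others were at 11.69 to 11.7. On dnPI3K MI replicate 3 Anxa5 was at 12.19, against 12.06 to 12.08.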

How the results depend on the processing

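No sign of a member's passing difference turned under any alternative, and Tfpi caPI3K minus dnPI3K in sham and MI hearts and F2r MI minus sham in dnPI3K hearts passed under all of theirs. The 10 passing differences of members have 183 values under alternatives, of which 27 did not pass, and 10 values of the 74 others did. The cause of a changed count was not tested, and leaving arrays out also lowers their number. For MI minus sham in Ntg hearts, the count of members was 0 with the next brightest probe sets, and that of members and of other pathway genes was 0 each without the intensity trend, with only the compared groups and without sham arrays 415 to 418; leaving out an array gave 0 to 2 members and 0 to 3 other genes, the highest without Ntg sham replicate 4. In dnPI3K hearts, members numbered 2 with only the compared groups and with the term for array numbers, 1 to 2 with an array left out, and other genes 1 without arrays 415 to 418. In caPI3K hearts, the compared groups alone gave 2 members and 4 other genes, and leaving out the arrays with Y-linked signal 0 other genes. For sham dnPI3K minus Ntg, members were 0 with the next brightest probe sets, without the trend, with only the compared groups and without arrays 415 to 418, and 0 to 1 with an array left out (0 without Ntg sham replicate 4 or dnPI3K sham replicate 2). For sham caPI3K minus Ntg they were 0 without the trend, with only the compared groups, without arrays 415 to 418 and without the Y-linked arrays, and 1 to 4 with an array left out (4 without Ntg sham replicate 4). For sham caPI3K minus dnPI3K, members were 2 without arrays 415 to 418 and 2 without the Y-linked arrays, and other genes 4 with only the compared groups, 1 without the Y-linked arrays and 1 to 3 with an array left out (1 without caPI3K sham replicate 4). For MI dnPI3K minus Ntg, members were 0 with only the compared groups, and other genes 1 with the median signal as pseudocount and 0 to 1 with an array left out (1 without dnPI3K MI replicate 3). For MI caPI3K minus dnPI3K, leaving out an array gave 1 to 2 members (2 without dnPI3K MI replicate 2, where Vwf passed at -0.62), and other genes were 1 after quantile normalization and 2 with only the compared groups. Over all genes the counts ran from 9 to 672 for MI in Ntg, 667 to 1521 in dnPI3K and 9 to 404 in caPI3K hearts, from 41 to 193, 0 to 412 and 234 to 1634 for the sham comparisons in the order above, and from 190 to 493, 0 to 3 and 392 to 694 for those in MI hearts. The differences between MI effects gave 0 to 2, 0 to 2 and 0 to 64 genes, none of them members. No paired analysis was possible because the labels give groups no shared replicate numbers. Signal near the filter limits Plau, Alb, Ttr and, less so, Procr.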
